A study of Rattus norvegicus with 4 samples.

Results

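The genes described here serve glycine transmission and the chloride gradient that gives it its sign. They are the glycine receptor subunits Glra1, Glra2, Glra3 and Glrb, the scaffold gephyrin (Gphn), the glycine transporters Slc6a5 and Slc6a9, and the chloride cotransporters Slc12a2 and Slc12a5. The 9 rat genes were chosen by name, and their probes were found by matching the accession on the array to RefSeq transcripts. All 9 were found, with 14 of the 30367 probes on the array. They are 9 of the 22422 genes kept for testing, and all 14 probes were well above background in both channels on every array. Spinal dorsal horn, the part of the cord that receives sensory input, was taken on day 10 from male rats aged 6 weeks. The rats had been given oxaliplatin, a platinum chemotherapy drug with painful neuropathy among its side effects, or vehicle, with 2 arrays in each group. On all 4 arrays the labels place RNA of untreated male rats of the same age in the Cy3 (green) channel, and RNA of the treated rats in the Cy5 (red) channel. The arrays of a group are labelled as biological replicates. The sources used here do not say whether 1 rat or a pool went on an array, or which dose was given.

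Glycine is released by inhibitory interneurons of the cord and opens a chloride channel built from alpha subunits and the beta subunit. The beta subunit binds gephyrin, which holds the receptors at the synapse. Slc6a5 (GlyT2) refills the terminals of glycinergic neurons, while Slc6a9 (GlyT1) clears glycine largely into astrocytes. Whether the open channel inhibits a neuron depends on its chloride gradient: Slc12a5 (KCC2) exports chloride from mature neurons, and Slc12a2 (NKCC1) imports it into neurons and glia.

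The direction of a change in the rats cannot be read from the ratio alone. Each value is the log2 of Cy5 over Cy3 on an array, after background correction and loess normalisation, with errors over the 2 arrays of a group. The labels hold no dye swap, and their text on dye incorporation breaks off after naming Cy3, so dye and RNA source cannot be told apart. The Cy5 channel also went against its tissue label. All 7 kept markers of sensory ganglion neurons, whose cell bodies lie outside the cord, had ratios above 0 on every array. Scn10a, their sodium channel, had ratios of 5.05 and 5.76 on the vehicle arrays and 5.57 and 4.97 on the oxaliplatin arrays. The list's summed Cy5 signal was 168000 and 181000 on the vehicle and 164000 and 149000 on the oxaliplatin arrays, against 12900 and 7200, and 7790 and 13200, in Cy3. Of its 8 markers Mrgprd was not kept, and the kept ones were well above background in both channels on every array. All 7 kept forebrain markers (of 8, without Emx1) were above 0 as well, with a median ratio of 2.30 to 2.63 over the arrays. In Cy3, 5 of the 7 forebrain markers were well above background on every array. Their summed signal was 26600 to 27600 in Cy5 and 2290 to 2660 in Cy3. Oligodendrocyte markers had ratios below 0 on every array in 7 of 7 cases, with median ratios of -1.73 and -1.5 on the vehicle and -1.35 and -1.03 on the oxaliplatin arrays. The part of these cells and tissues in the ratios below was not tested. In tissue RNA, fewer cells of a type and less RNA per cell cannot be told apart. Between 80.9% and 83.7% of probes were well above background in Cy5, and between 74.7% (oxaliplatin replicate 2) and 86.4% in Cy3. Vehicle and oxaliplatin arrays were on separate slides, so that slide and group cannot be told apart.

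Most of the 9 genes had normalised ratios below 0, that is, a weaker Cy5 than Cy3 signal relative to other genes of like brightness, in both groups. On the vehicle arrays 6 of 9 had a ratio below 0 at an adjusted p under 0.05, where 22.4% of all genes did, and 0 of 9 a ratio above 0, where 23.7% did (limma, Benjamini-Hochberg over all genes). On the oxaliplatin arrays 6 of 9 were below 0, where 16% of all genes were, and 1 of 9 was above, where 19.2% were. The 6 were the same in both groups: Glra1, Glra3, Gphn, Slc6a5, Slc6a9 and Slc12a2, and 12.5% of all genes were below 0 in both. The median ratio of the 9 genes was -0.56 for vehicle and -0.83 for oxaliplatin, against 0.033 and 0.028 over all genes. With median centring in place of loess, 6 of the 9 were called below 0 and 2 above on the vehicle arrays. Of all 22422 genes, 3483 were called below and 6012 above there. On the oxaliplatin arrays 5 of the 9 were called below and 3 above, where 5159 and 6776 of all genes were. Of all genes called on the oxaliplatin arrays, 54.5% lay above 0, and 44.4% when Agilent's own log ratio was used. On the vehicle arrays 51.3% did, 63.3% after median centring and 42.3% by Agilent's own log ratio. Between oxaliplatin and vehicle, 0 of the 9 ratios passed the test, and 0% of all genes did. At an unadjusted p under 0.05 there were 2 of the 9, Slc6a5 and Slc6a9, and 3301 genes in all.

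**Figure D1:**
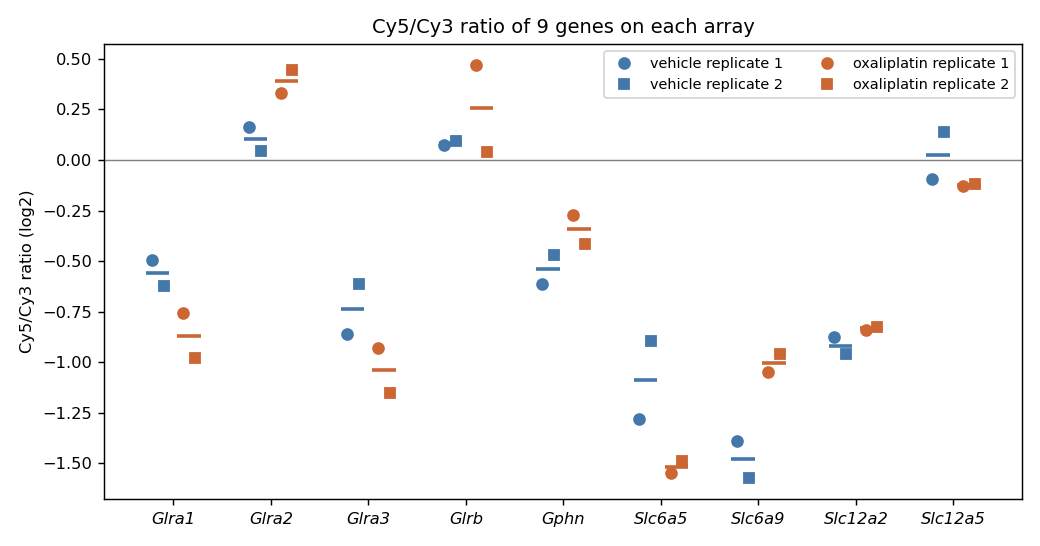
The log2 Cy5/Cy3 ratio of each of the 9 genes (y axis) on each of the 4 arrays, with vehicle in blue, oxaliplatin in orange, replicate 1 as circles, replicate 2 as squares and the group mean as a line. Slc6a5 lies lowest on the oxaliplatin arrays (-1.55 and -1.49) and Slc6a9 lowest on the vehicle arrays (-1.39 and -1.57).

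**Figure D2:**
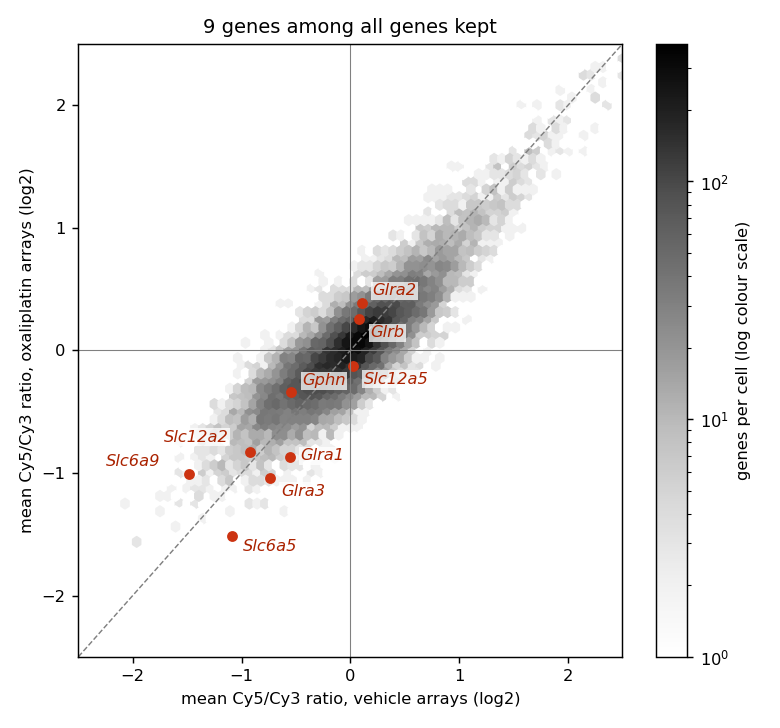
Mean log2 Cy5/Cy3 ratio on the vehicle arrays (x axis) against that on the oxaliplatin arrays (y axis), with all genes kept as grey cells on a log colour scale, the 9 genes in red and equality as a dashed line; 145 genes lie outside the axes. Slc6a5 lies below the line and Slc6a9 above it, both far from the centre of all genes.

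The receptor alpha subunits did not share one pattern. Glra1, which carries adult glycine receptors in the cord, had ratios of -0.49 and -0.62 on the vehicle and -0.76 and -0.98 on the oxaliplatin arrays. Both oxaliplatin arrays lay below both vehicle arrays. The vehicle mean of -0.56 ± 0.091 (SD, n = 2) was below 0 (adjusted p = 0.00339), a call lost without vehicle replicate 2 (-0.49, adjusted p = 0.0558). The oxaliplatin mean was -0.87 ± 0.16 (adjusted p = 8.30e-04). The groups differed by -0.31 ± 0.13 (SE, adjusted p = 0.343), and by -0.20 both without oxaliplatin replicate 2 and with median centring. In the single channels, normalised log2 Cy5 was 10.27 and 9.41 on the vehicle and 9.58 and 9.48 on the oxaliplatin arrays, and log2 Cy3 was 10.77 and 10.01 against 10.33 and 10.46. Vehicle replicate 1 was thus the highest in both channels, and the vehicle arrays enclosed the oxaliplatin ones in both Cy5 and Cy3. The group means in Cy3 were 10.39 and 10.39. Leaving out vehicle replicate 1 gave a Cy3 difference of 0.38 (adjusted p = 0.257), and a Cy5 difference of 0.13 (adjusted p = 0.271). Leaving out vehicle replicate 2 gave a Cy5 difference of -0.74 (adjusted p = 0.0414, with 3.26% of all genes called).

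Glra3, an alpha subunit of receptors in the superficial dorsal horn, had ratios of -0.86 and -0.62 on the vehicle and -0.93 and -1.15 on the oxaliplatin arrays. The groups lay apart, with oxaliplatin lower, although oxaliplatin replicate 1 and vehicle replicate 1 were only a small step from each other. Both means, -0.74 ± 0.17 and -1.04 ± 0.16 (SD, n = 2), were below 0 (adjusted p = 0.00159 and 5.68e-04). The Glra3 probe was the dimmest of those used for the 9 genes. Its background-subtracted Cy5 was 195.5 and 173.8 on the vehicle and 254.8 and 289.8 on the oxaliplatin arrays. Its Cy3 was 267 and 180.5, then 310.5 and 228.8. With Agilent's own log ratio the vehicle mean was -1.14 and the oxaliplatin mean -1.47. The difference of the ratio was -0.30 ± 0.14 (SE, adjusted p = 0.384), and it was -0.18 without vehicle replicate 2 and -0.19 without oxaliplatin replicate 2. Both channels were higher on the oxaliplatin arrays, and over all genes the group differences in Cy5 and Cy3 had a correlation of 0.85. Log2 Cy5 was 7.61 and 7.63 against 7.97 and 8.01, a difference of 0.37 ± 0.079 (adjusted p = 0.176). Leaving out vehicle replicate 1 gave an adjusted p of 0.0338, in a fit that called 31.7% of all genes, and leaving out each other array gave 0.0836 to 0.937. Log2 Cy3 was 8.48 and 8.25 against 8.87 and 9.19, a difference of 0.67 ± 0.19 (adjusted p = 0.170). The larger step in Cy3 goes with the lower ratio.

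Glra2, the alpha subunit that is prominent in the immature cord, was the member with ratios above 0 in 4 of 4 arrays and a call. Its ratios were 0.16 and 0.043 on the vehicle and 0.33 and 0.45 on the oxaliplatin arrays. The groups lay apart with oxaliplatin higher, the reverse of Glra1 and Glra3. The oxaliplatin mean of 0.39 ± 0.081 (SD, n = 2) was above 0 (adjusted p = 0.0137, and 0.0559 without oxaliplatin replicate 2), while the vehicle mean was 0.10 ± 0.085 (adjusted p = 0.356). These levels depended on the normalisation: with median centring they were 1.09 and 0.75, both called (adjusted p = 1.40e-04 and 9.09e-04). In that setting 53.2% of all genes were called on the oxaliplatin arrays and 42.3% on the vehicle arrays. The difference of the ratio was 0.29 ± 0.12 (SE, adjusted p = 0.340). Log2 Cy5 was 15.25 and 15.21 on the vehicle and 15.14 and 15.22 on the oxaliplatin arrays, a range of 0.11 over all 4. Log2 Cy3 was 15.11 and 15.17 against 14.81 and 14.75, a difference of -0.36 ± 0.15 (adjusted p = 0.243). Cy5 overlapped between the groups and Cy3 did not.

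Glrb, the beta subunit through which receptors are anchored, had ratios near 0 on 3 of the 4 arrays. They were 0.073 and 0.093 on the vehicle and 0.47 and 0.039 on the oxaliplatin arrays, so only oxaliplatin replicate 1 stood above the rest and the groups overlapped. Glrb was the only member whose ratios overlapped. Over all genes, the ratios lay apart with oxaliplatin higher for 27.2% and with oxaliplatin lower for 22.2%. Neither mean was called against 0 (0.083 ± 0.014, adjusted p = 0.580, and 0.25 ± 0.31, adjusted p = 0.127, SD, n = 2). Without oxaliplatin replicate 2 the remaining oxaliplatin value was 0.47. With median centring the oxaliplatin mean was 0.34 and called (adjusted p = 0.0495), in a setting that called 53.2% of all genes on those arrays. The difference was 0.17 ± 0.16 (SE, adjusted p = 0.645), and -0.044 without oxaliplatin replicate 1. In Cy3 that array was the lowest, at 9.12 against 9.32 to 9.53 on the other arrays, while Cy5 spanned 9.41 to 9.57.

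Gphn, the scaffold under both glycine and GABA-A receptors, had ratios below 0 that were closer to 0 on the oxaliplatin arrays. They were -0.61 and -0.47 on the vehicle and -0.27 and -0.41 on the oxaliplatin arrays. The groups lay apart, by a small margin. The vehicle mean of -0.54 ± 0.10 (SD, n = 2, adjusted p = 0.00303) and the oxaliplatin mean of -0.34 ± 0.10 (adjusted p = 0.0244) were called. The oxaliplatin call was lost without oxaliplatin replicate 2 (-0.27, adjusted p = 0.107), and median centring in place of loess gave -0.10 (adjusted p = 0.457). The difference was 0.20 ± 0.12 (SE, adjusted p = 0.486). It was 0.13 both without oxaliplatin replicate 1 and without vehicle replicate 1, and 0.34 with median centring. The other Gphn probe gave -0.59 and -0.58 against -0.30 and -0.27, a difference of 0.30 ± 0.11 (adjusted p = 0.319 over all probes). Gphn had the steadiest Cy5 signal of the 9 genes, with a range of 0.053 over the 4 arrays (11.16 to 11.21). The median range over all genes was 0.30 in Cy5. In Cy3 its values were 11.83 and 11.63 on the vehicle and 11.49 and 11.56 on the oxaliplatin arrays.

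The promoters of the glycine transporters are shown because these genes had the smallest p of the 9 for the difference between the groups, with opposite signs. RefSeq promoter windows (build GRCr8) matched 8 of the 9 genes, and each line below gives the 250 bases before the annotated start, 5′ to 3′ on the strand of the gene. Capitals mark a GC box, GGGCGG or CCGCCC. The Slc6a5 window is chr1:108781303-108781552 and the Slc6a9 window chr5:136659826-136660075, both on the plus strand.
Slc6a5: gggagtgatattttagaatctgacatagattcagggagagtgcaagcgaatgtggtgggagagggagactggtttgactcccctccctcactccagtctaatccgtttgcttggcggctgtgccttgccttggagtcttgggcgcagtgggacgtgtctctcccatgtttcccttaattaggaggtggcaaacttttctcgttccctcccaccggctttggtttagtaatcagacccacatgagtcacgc
Slc6a9: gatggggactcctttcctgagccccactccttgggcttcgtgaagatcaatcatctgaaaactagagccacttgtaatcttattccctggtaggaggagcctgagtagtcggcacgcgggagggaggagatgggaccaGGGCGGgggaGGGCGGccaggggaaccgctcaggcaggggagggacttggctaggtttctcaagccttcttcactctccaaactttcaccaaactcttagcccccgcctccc
The Slc6a5 window held 0 GC boxes and the Slc6a9 window 2, and 30.5% of 33469 promoter windows of this length held at least 1. Neither window held a TATA box (TATAAA or TTTATA, which 12.9% of windows held). The GC content was 52.4% for Slc6a5 and 58.4% for Slc6a9, with a median of 51.2% over all windows. The array measured transcripts, not activity of these windows.

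The glycine transporters held the most negative mean ratio of the 9 genes in each group, Slc6a9 on the vehicle and Slc6a5 on the oxaliplatin arrays. They differed between the groups in opposite directions, without passing the test. Slc6a5, the neuronal transporter, had ratios of -1.28 and -0.89 on the vehicle and -1.55 and -1.49 on the oxaliplatin arrays. The oxaliplatin arrays were close together and below both vehicle arrays, which were further from each other. The mean was -1.09 ± 0.27 (SD, n = 2, adjusted p = 4.78e-04) on the vehicle and -1.52 ± 0.042 (adjusted p = 1.62e-04) on the oxaliplatin arrays. These are a normalised Cy3 excess of 2.12-fold and 2.86-fold, relative to other genes of like brightness. Before normalisation, background-subtracted Cy5 and Cy3 were 6967 and 9574 on vehicle replicate 1, and 6886 and 6444 on vehicle replicate 2. They were 9544 and 11680 on oxaliplatin replicate 1, and 10040 and 6700 on oxaliplatin replicate 2. Few genes had a more negative ratio: in the oxaliplatin mean, 0.0981% of all genes lay lower. The groups differed by -0.43 ± 0.15 (SE, 95% interval -0.80 to -0.063, unadjusted p = 0.0278, adjusted p = 0.308). Leaving out vehicle replicate 2 gave -0.24, leaving out vehicle replicate 1 gave -0.62, and median centring gave -0.26. The size of the difference thus turned on which vehicle array was kept. Its sign could not turn when an array was left out, because the groups lay apart, and it stayed the same with median centring. Log2 Cy5 was 12.33 and 12.23 on the vehicle and 12.45 and 12.48 on the oxaliplatin arrays, a difference of 0.19 ± 0.084 (adjusted p = 0.298). Log2 Cy3 was 13.59 and 13.11 against 14.03 and 13.98, a difference of 0.66 ± 0.20 (adjusted p = 0.180). The Cy3 difference was 0.90 (adjusted p = 0.0364, with 9.83% of all genes called) when vehicle replicate 1 was left out and 0.42 (adjusted p = 0.450) when vehicle replicate 2 was. The groups lay apart in both channels, with higher signals on the oxaliplatin arrays. Shifts of like direction in both channels were common, with a correlation of 0.85 between the Cy5 and Cy3 differences over all genes. A dimmer Slc6a5 probe had ratios of -0.56 and -0.15 against -1.02 and -0.82, a difference of -0.57 ± 0.17 (adjusted p = 0.304 over all probes). With the mean over both probes the vehicle ratio was -0.72. Beside these values, markers of inhibitory dorsal horn neurons (9 of 9 kept, Slc32a1 among them, all well above background in both channels on every array) had a median ratio of -0.21 and -0.16 on the vehicle and -0.34 and -0.51 on the oxaliplatin arrays. The list was mixed, with 5 markers below 0 and 2 above 0 on every array. Slc32a1 was lower on the oxaliplatin arrays (-0.34 and -0.86 against -0.25 and -0.21). Pax2 was higher on them (0.16 and 0.030 against -0.0084 and -0.16). The summed Cy3 signal of the 9 markers was 117000 and 129000 against 119000 and 144000, and their summed Cy5 signal 110000 and 117000 against 106000 and 107000. Their part in the Slc6a5 difference was not tested.

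Slc6a9, the transporter of glia, had ratios of -1.39 and -1.57 on the vehicle and -1.05 and -0.96 on the oxaliplatin arrays. Here the oxaliplatin arrays lay above both vehicle arrays, the reverse of Slc6a5. The means of -1.48 ± 0.13 (SD, n = 2, adjusted p = 6.61e-05) and -1.0 ± 0.065 (adjusted p = 3.73e-04) correspond to a normalised Cy3 excess of 2.79-fold and 2.01-fold. That excess is relative to other genes of like brightness. Before normalisation, background-subtracted Cy5 and Cy3 were 3369 and 5327, then 4293 and 6666, on the vehicle arrays. On the oxaliplatin arrays they were 3943 and 3826, then 3794 and 1916, with Cy5 the brighter. In the vehicle mean, 0.299% of all genes lay lower. The difference of 0.48 ± 0.13 (SE, 95% interval 0.18 to 0.77, unadjusted p = 0.00724, adjusted p = 0.294) was the one with the smallest p among the 9 genes. It ranged from 0.38 to 0.57 when an array was left out, and it was 0.31 with ratios scaled between arrays. Its sign could not turn when an array was left out, because the groups lay apart, and it stayed the same with scaled ratios. Log2 Cy5 was 11.31 and 11.58 on the vehicle and 11.28 and 11.19 on the oxaliplatin arrays, a difference of -0.21 ± 0.12 (adjusted p = 0.373). Log2 Cy3 was 12.72 and 13.15 against 12.35 and 12.13, a difference of -0.69 ± 0.20 (adjusted p = 0.173). Both channels were thus lower on the oxaliplatin arrays, and Cy3 by the larger step. Without vehicle replicate 1 the Cy5 difference was -0.34 (adjusted p = 0.0440) and the Cy3 difference -0.90 (adjusted p = 0.0413), in fits that called 31.7% and 9.83% of all genes. With vehicle replicate 2 left out instead they were -0.078 (adjusted p = 0.537) and -0.48 (adjusted p = 0.420). The other Slc6a9 probe had ratios of -1.38 and -1.55 against -1.21 and -0.92, a difference of 0.40 ± 0.14 (adjusted p = 0.312 over all probes). Astrocyte markers (7 of 7 kept, all well above background in both channels on every array) had a median ratio of -1.13 and -1.31 on the vehicle and -0.85 and -0.45 on the oxaliplatin arrays. Of the 7, 5 were below 0 on every array. Slc1a3 was above 0 on every array, with 1.38 and 1.58 on the vehicle and 1.27 and 1.32 on the oxaliplatin arrays. The summed Cy3 signal of the 7 markers was 241000 and 236000 against 214000 and 219000, and their summed Cy5 signal 151000 and 146000 against 153000 and 172000. Oligodendrocyte markers, with the median ratios given above, had summed Cy3 signals of 504000 and 589000 against 398000 and 399000, and summed Cy5 signals of 174000 and 176000 against 163000 and 181000. The part of these glial markers in the Slc6a9 difference was not tested.

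**Figure D3:**
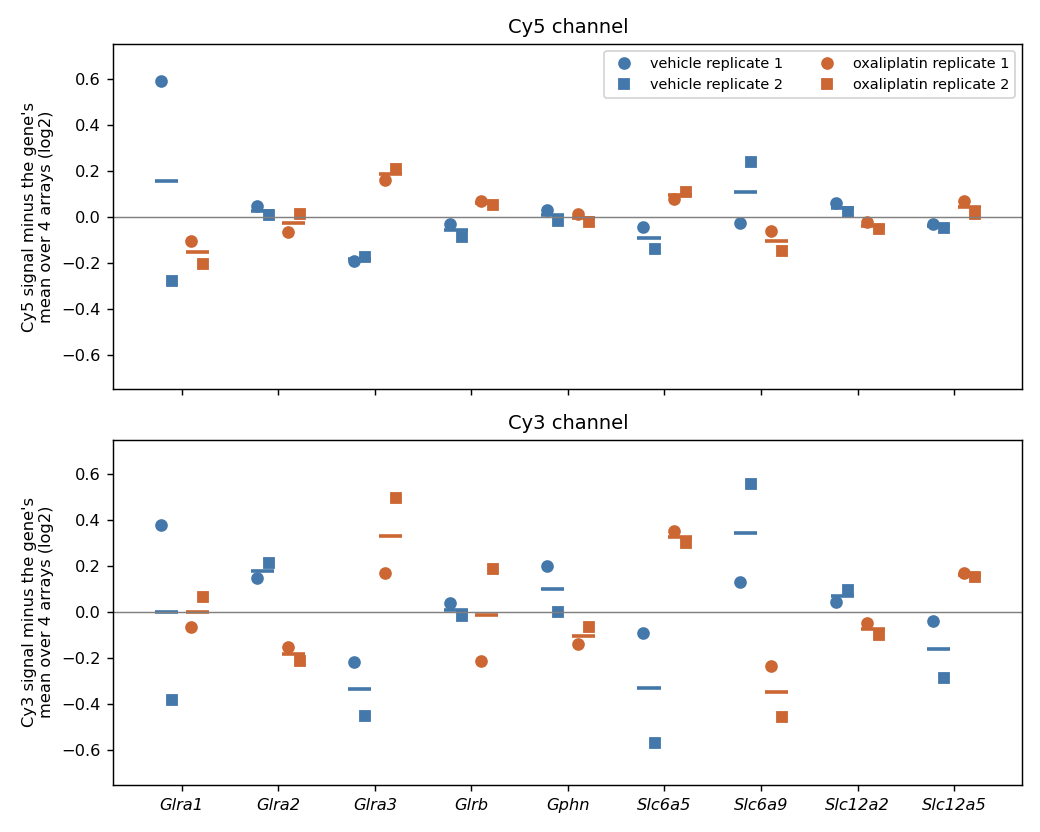
Normalised log2 signal of each gene minus its own mean over the 4 arrays (y axis) in the Cy5 channel (top) and the Cy3 channel (bottom), with vehicle in blue, oxaliplatin in orange, replicate 1 as circles, replicate 2 as squares and the group mean as a line. Slc6a5, Slc6a9 and Glra3 spread more in Cy3 than in Cy5, and Glra1 is high on vehicle replicate 1 in both.

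The chloride cotransporters were measured by probes with 10 spots per array. Slc12a2, the importer, had ratios of -0.88 and -0.96 on the vehicle and -0.84 and -0.82 on the oxaliplatin arrays. All 4 arrays were close, and the groups lay apart by less than the SD of 0.040 to 0.062 between spots of the probe on an array. The means of -0.92 ± 0.061 (SD, n = 2, adjusted p = 2.98e-04) and -0.83 ± 0.012 (adjusted p = 5.54e-04) were below 0. With median centring they were closer to 0, at -0.54 and -0.36. The groups differed by 0.085 ± 0.11 (SE, 95% interval -0.19 to 0.36, adjusted p = 0.757), by -0.035 with ratios scaled between arrays, by 0.042 without vehicle replicate 2, by 0.13 without vehicle replicate 1, by 0.18 with median centring and by 0.26 with the mean over both probes. Log2 Cy5 was 13.19 to 13.31 over the arrays and log2 Cy3 14.03 to 14.23. The other probe, with a single spot per array, gave a difference of 0.43 ± 0.20 (adjusted p = 0.367 over all probes).

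Slc12a5, the exporter of mature neurons, had ratios of -0.095 and 0.14 on the vehicle and -0.13 and -0.12 on the oxaliplatin arrays. Vehicle replicate 2 stood above the other 3 arrays. Its 10 spots ran from 0.090 to 0.18, above every spot of the other arrays, whose highest was -0.036. Neither group mean was called against 0 (0.023 ± 0.17, adjusted p = 0.853, and -0.12 ± 0.0071, adjusted p = 0.324, SD, n = 2). With median centring both were above 0 and called (0.80 and 0.77, adjusted p = 0.00117 and 0.00147), where 42.3% and 53.2% of all genes were called. The side of 0 on which Slc12a5 lay thus depended on the normalisation. The difference between the groups was -0.15 ± 0.13 (SE, 95% interval -0.45 to 0.16, adjusted p = 0.618), -0.030 without vehicle replicate 2, -0.036 with median centring and -0.26 without vehicle replicate 1. Log2 Cy5 was 15.91 and 15.89 on the vehicle and 16.01 and 15.96 on the oxaliplatin arrays. Log2 Cy3 was 15.98 and 15.73 against 16.19 and 16.17, a difference of 0.32 ± 0.17 (adjusted p = 0.312). The groups lay apart in both channels with oxaliplatin higher. A dimmer Slc12a5 probe had ratios of -0.33 and 0.50 against -0.10 and -0.66, which overlapped, with a difference of -0.47 ± 0.30 (adjusted p = 0.488 over all probes). With the mean over both probes the difference was -0.31. The intervals for Slc12a2 and Slc12a5 leave room for differences of up to 0.36 and 0.45 in size.

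Across the 9 genes, the groups of ratios lay apart with oxaliplatin higher for 4 genes, where 27.2% of all genes did, and lower for 4, where 22.2% did. In Cy5 they lay apart in either direction for 6 of 9, where 59.7% of all genes did, and in Cy3 for 7 of 9, where 58.3% did. Over all genes the group differences in Cy5 and Cy3 had a correlation of 0.85. A shift of like direction in both channels was therefore not particular to these genes. No member was called between the groups in Cy5 or Cy3, and 0% of all genes were in either channel, with 4400 and 4767 genes at an unadjusted p under 0.05 by limma. The median difference of the 9 genes was 0.085 in the ratio, -0.011 in Cy5 and -0.023 in Cy3, beside 0.0060, -0.038 and -0.039 over all genes. The range over the 4 arrays was wider in Cy3 than in Cy5 for 8 of the 9 genes, all but Glra1, and the median range over all genes was 0.49 in Cy3. For the 5 genes with a pair of probes, both probes had the same sign of the difference in 5 of 5.

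The other genes of the pathway were taken from 3 lists. Of 13 kept genes of the inhibitory synapse, 0 passed between the groups, with a median difference of -0.017. Slc32a1, which loads glycine and GABA into vesicles, had ratios of -0.25 and -0.21 against -0.34 and -0.86, a difference of -0.37 ± 0.18 (SE, n = 2 arrays per group, adjusted p = 0.387). Its oxaliplatin arrays were lower, as for Slc6a5. Against 0, 2 genes of this list were called below and 2 above on the vehicle arrays, and 3 and 2 on the oxaliplatin arrays. Over all genes the shares were 22.4% and 23.7%, and 16% and 19.2%, so that these counts of 13 are near or under the background. Mocs1 was not kept.

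Of 9 kept genes of glycine and serine metabolism, 0 passed between the groups, with a median difference of 0.017. Against 0, 6 were called below and 1 above on the vehicle arrays, and 7 below and 0 above on the oxaliplatin arrays, with median ratios of -0.51 and -0.47. The shares of all genes called below and above were 22.4% and 23.7% for vehicle, then 16% and 19.2% for oxaliplatin. Gatm, which uses glycine to make the precursor of creatine, differed by 0.45 ± 0.14 (SE, n = 2 arrays per group, adjusted p = 0.300). Amt, of the glycine cleavage system, differed by 0.38 ± 0.15 (adjusted p = 0.317), and Psat1, of serine synthesis, by -0.25 ± 0.11 (adjusted p = 0.361). In the list as a whole the groups lay apart with oxaliplatin higher for 3 genes, where 27.2% of all genes did, and lower for 2, where 22.2% did. Shmt1 and Gldc were not kept.

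Of 16 genes for other cation chloride cotransporters, the kinases that control them and related genes, 0 passed between the groups, with a median difference of -0.012, and 8 were higher and 8 lower. Slc12a9 differed by 0.54 ± 0.18 (SE, n = 2 arrays per group, adjusted p = 0.306), the kinase Wnk2 by 0.43 ± 0.15 (adjusted p = 0.308) and the cotransporter Slc12a3 by 0.39 ± 0.15 (adjusted p = 0.314). Oxsr1 and Stk39, kinases that phosphorylate Slc12a2 and Slc12a5, differed by -0.34 ± 0.18 (adjusted p = 0.428) and 0.10 ± 0.12 (adjusted p = 0.699). Oxsr1 was low on oxaliplatin replicate 2 alone, with ratios of 0.071 and 0.056 on the vehicle and -0.011 and -0.54 on the oxaliplatin arrays. Against 0, 5 were called below and 4 above on the vehicle arrays, and 3 below and 4 above on the oxaliplatin arrays, all near the shares over all genes (22.4% and 23.7%, then 16% and 19.2%). Bdnf, a growth factor that acts on Slc12a5 in the dorsal horn, was among those above, with ratios of 1.64 and 1.60 on the vehicle and 1.59 and 1.5 on the oxaliplatin arrays.

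**Figure D4:**
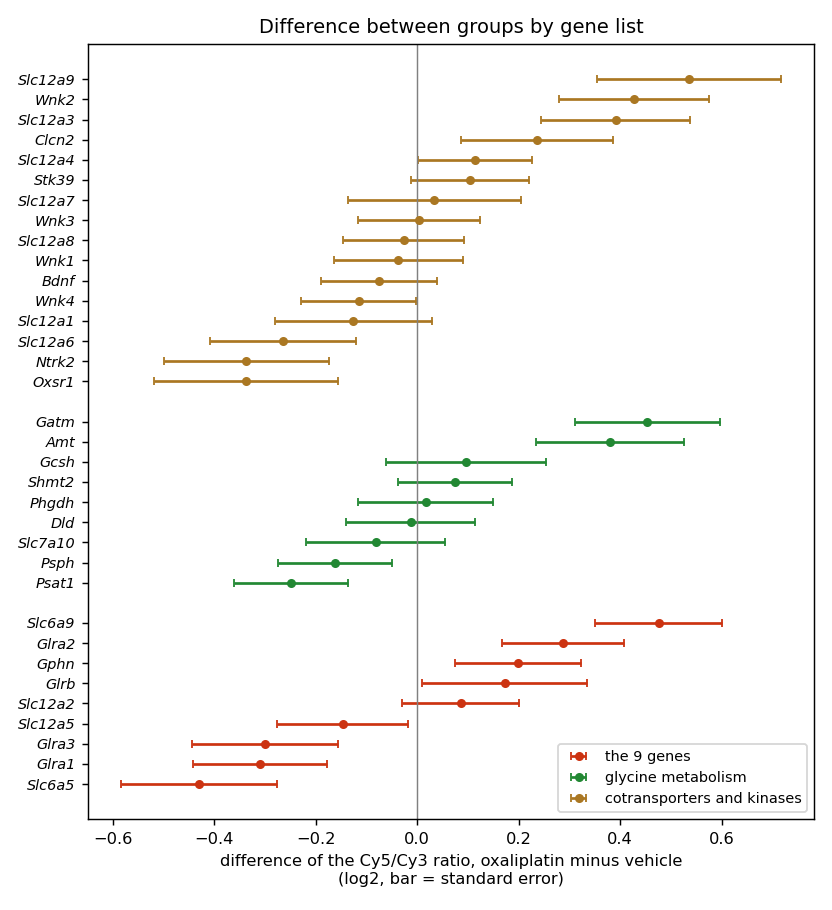
Difference of the log2 Cy5/Cy3 ratio, oxaliplatin minus vehicle (x axis, with standard error bars from limma, 2 arrays per group), for the 9 genes and for each gene of the glycine metabolism list and the cotransporter and kinase list, sorted within each list. Differences lie on both sides of 0 in each of the 3 sets shown, from -0.43 (Slc6a5) to 0.54 (Slc12a9).

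Likeness was measured as the root mean square gap between the ratios of a pair of genes over the 4 arrays. The search covered 12154 other named genes well above background in both channels on all arrays. Ratios were not centred, so the gap takes in level as well as pattern, and few genes had a level like that of Slc6a5. In the vehicle and oxaliplatin means, 1.48% and 0.0981% of all genes lay below Slc6a5, and 48.8% and 31.7% below Slc12a5. No gene (0 genes) came within 0.1 of Slc6a5. The nearest were Cd83, an immune surface protein, at 0.15, Kcnab3, a potassium channel subunit, at 0.16, and Slc27a2, a fatty acid transporter, at 0.18. For Slc12a5, 256 genes came within 0.1, and the nearest were Coq9, of coenzyme Q synthesis, at 0.020, Crtap, of collagen synthesis, at 0.031 and Lrpprc, of mitochondrial RNA handling, at 0.035. With 4 arrays these gaps describe the arrays only.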

How the data were processed

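Sample titles gave the groups and replicate numbers; 0 columns stayed without a sample. The deposited scanner files give, per the file headers, spot and local background intensity as median pixel signals, Agilent's processed intensity, its log10 ratio of Cy5 over Cy3, and flags with other values. Feature Extraction 10.7.1.1 stands in the headers, whereas 8.5.1.1 stands in the submitters' processing notes. The value table deposited by the authors holds log10 ratios that matched the scanner files' by spot number within 0.0050.

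Median signals were corrected by normexp (offset 50) and normalised by loess within arrays in limma 3.58.1 (R 4.3.3), with controls (4259 spots) at weight 0. Spots marked as outliers were left out (4 of those of the 9 genes) and spots of a probe averaged. Probes with Cy5 well above background on at least 2 arrays were kept (25552), named by accession (18758 of 30367 had a symbol), and each gene was represented by its brightest probe. Single channels were quantile normalised within the channel, so their difference is not exactly the ratio. Groups were compared by lmFit and eBayes (two-sided, residual df 2, prior df 4.77, threshold 0.05). The fit was tried on simulated ratios with changes larger than any difference of the 9 genes. Detection of differences of their size was not simulated. The 9 genes, the pathway and marker lists and the rules were chosen with earlier results of these data known. Named pathway genes were the 3 per list with the smallest p, some of which are not reported here, and Oxsr1, Stk39 and Bdnf, chosen after their values were seen. The vehicle arrays were scanned at separate times, and a fit with scan time as a random block could not be made because no correlation was estimated. Replicate numbers do not pair the samples in the labels. Genome coordinates of probes were not used.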

Additional observations from a re-analysis of the deposited data

How the results depend on the processing

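None of the 9 differences of the ratio passed the test under any of 14 alternatives. Of the 486 alternative values of the 9 genes, 459 kept direction and call. That count is not a measure of stability, because many of the values could not change direction. Filtering dim probes differently, or adding a block for replicate number, left the estimates of the 9 genes as they were. Leaving out an array left the ratio of the other group unchanged, and the authors' value table nearly repeated Agilent's own log ratio. Directions turned for Glrb's vehicle ratio with Agilent's own log ratio (-0.016) and the authors' value table (-0.016), Slc12a5's oxaliplatin ratio with median centring (0.77) and Slc12a2's difference with scaled ratios (-0.035). Without an array, directions turned for Glrb's difference (-0.044 to 0.39), Slc12a5's vehicle ratio (-0.095 to 0.14), and the Cy5 differences of Gphn (-0.034 to 0.011) and Glra1 (-0.74 to 0.13). They also turned for the Cy3 differences of Glra1 (-0.38 to 0.38, and 0.0029 with Aquantile) and Glrb (-0.22 to 0.18). Glrb's difference was -0.044 without oxaliplatin replicate 1, and Slc12a5's vehicle ratio was -0.095 without vehicle replicate 2. Gphn's Cy5 difference was 0.0075 without oxaliplatin replicate 2 and 0.011 without vehicle replicate 1. Glra1's Cy5 difference was 0.13 without vehicle replicate 1. Glra1's Cy3 difference was 0.38 without vehicle replicate 1 and 0.065 without oxaliplatin replicate 1. Glrb's Cy3 difference was 0.18 without oxaliplatin replicate 1 and 0.0057 without vehicle replicate 1.

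Over all genes, the difference of the ratio was called for 0 genes, for 3 with median centring and for 2 to 1123 without an array. Leaving out oxaliplatin replicate 1 gave 1123, vehicle replicate 1 gave 33, oxaliplatin replicate 2 gave 16 and vehicle replicate 2 gave 2. Ratios against 0 were called for 10336 genes on the vehicle arrays (4954 to 12076 without an array, the lowest with vehicle replicate 2 left out, and 6446 with vehicle replicate 1 left out) and for 7907 on the oxaliplatin arrays (11935 with median centring, 5572 to 7913 without an array). Without an array, 0 to 7100 genes were called in Cy5 (7100 with vehicle replicate 1 and 732 with vehicle replicate 2 left out) and 0 to 2205 in Cy3 (2205 and 116 without the same arrays). With the replicate block, 5 genes were called in the ratio and 33 in Cy3, in place of 0. The same replicate number deviated in opposite ways (correlation -0.22), and with a crossed pairing, chosen after seeing the data, 618 genes were called. Leaving out an array leaves a lone array in its group, which is taken to vary like the other group. The causes were not tested. With 2 arrays per group, their number limits the precision.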
